A study of Homo sapiens with 6 samples.

Results

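The genes described here are the solute carriers (SLC genes) measured in MM.1S cells, an established human myeloma line that derives from malignant plasma cells. They were chosen by symbol, SLC followed by a digit, and by a mean normalised read count of 50 or more in both of the authors' deposited tables. The tables list 33095 genes, of which 12977 had such a mean. Of 348 rows with an SLC symbol, 148 fell under that mean and 2, the glucose carriers SLC2A1 and SLC2A3, were left out by name, which left 198 members of 46 families. The mean is taken over all libraries, so the counts below are of the members that passed it and not of every SLC gene.

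Solute carriers are membrane proteins that move small molecules across the plasma membrane or an organelle membrane, without burning ATP themselves. Members of a numbered family share sequence and often, but not always, a substrate: families SLC1, SLC7 and SLC38 move amino acids, SLC30 and SLC39 zinc, SLC29 nucleosides, SLC35 nucleotide sugars into the Golgi, and SLC25 metabolites across the inner mitochondrial membrane. Plasma cells make large amounts of protein and depend on amino acid uptake, and myeloma cells are known to carry the leucine transporter made of SLC3A2 and SLC7A5.

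All cells had been transduced with lentivirus. The control arm expressed a scrambled hairpin, and the other arms expressed shRNA 1 or shRNA 2 against IRF3, a transcription factor activated by nucleic acid sensing. Messenger RNA, enriched by its poly(A) tail, was sequenced in 6 libraries, 2 for each arm, and the labels do not say whether these came from separate cultures, so the p-values measure only the spread between these libraries. The comparisons were shRNA 1 against scramble and shRNA 2 against scramble, and both use the same scramble libraries.

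IRF3 itself had reconstructed means of 2809, 974 and 2476 normalised counts in the scramble, shRNA 1 and shRNA 2 arms. Its log2 fold change in the authors' deposited tables was -1.53 ± 0.10 (SE) with shRNA 1 (DESeq2 adjusted p = 8.45e-46) and -0.18 ± 0.10 with shRNA 2 (DESeq2 adjusted p = 0.181). The fall was thus seen in the libraries labelled shRNA 1 and was not detected in the libraries labelled shRNA 2, and every direction given below for shRNA 2 is that of the libraries so labelled. A reconstructed mean is the mean of an arm solved from the deposited mean and both deposited fold changes. Values of single libraries are not in the tables used here. The depth per library is therefore unknown, no standard deviation is given, and whether the libraries of different arms overlap was not analysed here. The 11 plasma cell markers checked, among them SDC1, IRF4 and JCHAIN, had means from 1665 to 31453 normalised counts in the authors' deposited tables and were thus present in a line labelled as myeloma. Their summed reconstructed means were 158971, 114729.9 and 104709.8 in the scramble, shRNA 1 and shRNA 2 arms, and 8 of 11 fell and 1 rose with shRNA 1, while 9 fell and 1 rose with shRNA 2. Of all genes with a mean of 50 or more, 16.4% were lower with shRNA 1 and 23.1% with shRNA 2. The part of this change in the results below was not tested. Among markers of other cells, 1 of 6 earlier B cell genes (CR2), 2 of 7 T and NK cell genes (CD3E and KLRD1), 1 of 6 myeloid genes (ITGAM) and 0 of 7 stromal and epithelial genes reached a mean of 50. In the authors' deposited tables ITGAM rose by 2.85 ± 0.44 (SE) with shRNA 1 and by 2.03 ± 0.44 with shRNA 2 on the log2 scale. CR2 rose with shRNA 1, at 0.68, and 1 of the 2 T and NK cell genes also rose with shRNA 1. CR2 and the T and NK cell genes did not pass with shRNA 2. In bulk RNA, fewer cells of a type and less RNA per cell cannot be told apart.

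In the tables, the members nearest the mean that chose them were SLC7A2 at 52.4, SLC6A20 at 57.5 and SLC25A5-AS1 at 59.5 normalised counts on the inside. On the outside lay SLC51A at 49.7, SLC31A2 at 48.2 and SLC6A8 at 47.1, all from the authors' deposited tables. By deposited mean alone the highest members were SLC9A3R1 (11242), SLC25A6 (10946), SLC1A4 (9055) and SLC25A5 (7748), in the authors' deposited tables. Levels of different genes can be compared only per length, so the deposited mean was divided by the merged exon length. On that scale the ADP/ATP carriers SLC25A5 and SLC25A6 stood at 5166 and 5058 normalised counts per kilobase. SLC9A3R1, a scaffold protein named after the exchanger it regulates and no carrier itself, followed at 4856. The mitochondrial carriers SLC25A39 at 1546 and SLC25A20 at 1519, the glutamine carrier SLC1A5 at 1477, the zinc exporter SLC30A1 at 1332 and the alanine and serine carrier SLC1A4 at 1305 came next. Per kilobase the light chain SLC7A5 stood at 475 and its heavy chain partner SLC3A2 at 642.

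Sequence before the start of transcription was available from RefSeq (GRCh38.p14) for 166 of the 198 members, and the 250 bases before each start were searched on both strands for 4 motifs. The first was the core of interferon regulatory factor sites, GAAANNGAA, since IRF3 belongs to that family. It was found in 6 of 166 members (3.61%), in 5.54% of the promoters of genes whose mean reached 50 and in 7.06% of all 27305 promoters. The 6 members were SLC2A9, SLC7A7, SLC13A4, SLC16A3, SLC25A46 and SLC36A1, and the windows of 3 of them are shown because 1 fell, 1 rose and 1 did not pass with both hairpins. The capitals mark the motif, which lies on the opposite strand in SLC7A7, and each window ends before the start of transcription.
SLC36A1 (chr5:151436804-151436892, plus strand, motif 202 bases before the start): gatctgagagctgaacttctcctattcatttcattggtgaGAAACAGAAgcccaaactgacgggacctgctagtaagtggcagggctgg
SLC16A3 (chr17:82228373-82228434, plus strand, motif 22 bases before the start): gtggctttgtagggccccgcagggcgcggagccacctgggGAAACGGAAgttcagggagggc
SLC7A7 (chr14:22819792-22819840, minus strand, motif 9 bases before the start): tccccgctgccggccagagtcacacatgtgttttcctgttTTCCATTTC

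SLC36A1, an exporter of small amino acids from lysosomes, fell with both hairpins, SLC16A3, a lactate exporter, rose with both, and SLC7A7, a light chain for cationic amino acids, passed with neither. A match to these letters is a description of the window and no sign of binding. The second motif was the E-box CACGTG, the sequence bound by MYC and by the lysosomal regulators TFEB and TFE3. It was present in 19 of 166 members (11.4%), in 9.29% of promoters of genes whose mean reached 50 and in 6.49% of all. Among 21 amino acid carriers with a sequence 3 held it, and among 32 members of SLC25 6 did. The windows below show the 3 amino acid carriers and, for comparison, the phosphate carrier SLC20A1 and the nucleoside carrier SLC29A1, with the E-box in capitals.
SLC7A5 (chr16:87869592-87869677, minus strand, motif 130 bases before the start): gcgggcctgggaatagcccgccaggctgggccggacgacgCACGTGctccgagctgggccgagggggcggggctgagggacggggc
SLC38A5 (chrX:48470421-48470506, minus strand, motif 206 bases before the start): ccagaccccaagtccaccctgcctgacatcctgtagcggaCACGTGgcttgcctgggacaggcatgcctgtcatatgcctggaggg
SLC43A1 (chr11:57515769-57515854, minus strand, motif 112 bases before the start): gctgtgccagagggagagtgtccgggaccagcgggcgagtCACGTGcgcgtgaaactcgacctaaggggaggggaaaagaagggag
SLC20A1 (chr2:112645693-112645778, plus strand, motif 206 bases before the start): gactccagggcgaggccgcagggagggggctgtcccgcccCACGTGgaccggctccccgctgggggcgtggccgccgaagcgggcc
SLC29A1 (chr6:44219365-44219415, plus strand, motif 245 bases before the start): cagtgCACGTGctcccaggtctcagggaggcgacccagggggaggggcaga

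Of these 5, SLC7A5 and SLC20A1 fell with both hairpins, SLC38A5 and SLC29A1 fell with shRNA 2, and SLC43A1 did not pass with either. No member that rose with shRNA 2 is among the windows shown, so they do not stand for all members with an E-box. The E-box occurred in 13.7% of the 51 searched members that fell with shRNA 2 and in 11.1% of the 90 that did not pass, and in 2 of the 25 that rose. With shRNA 1 the shares ran the other way, at 8.33% of the 36 that fell, 13.7% of the 117 that did not pass and 0 of the 13 that rose. The third motif was the amino acid response element core TGATGNAA bound by ATF4. It was in 5 of 166 members (3.01%), against 1.24% of genes whose mean reached 50 and 3.19% of all promoters, and in 0 of the 21 amino acid carriers in these 250 bases. The fourth was TGCNCNC, a looser string than the core of the metal response element. It was in 7 of 15 zinc carriers (46.7%), in 52.4% of members and in 56.3% of promoters of genes whose mean reached 50. This short string was thus common in each of these sets, and its matches need not be metal response elements. It can overlap the E-box, as in SLC29A1, where the motifs share 2 bases.

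With shRNA 1, 14 members rose and 43 fell at a DESeq2 adjusted p below 0.05, and 141 did not pass. Of the 198 this is 7.07% higher and 21.7% lower, where 10.6% of all 12977 genes with a mean of 50 or more were higher and 16.4% lower. With shRNA 2, 30 members rose and 54 fell, which is 15.2% and 27.3% of members, beside 13.3% and 23.1% of all genes. The members' shares thus lay near those of all genes in each direction, which is no result about solute carriers as a class. The median log2 fold change of the members was -0.06 with shRNA 1 and -0.13 with shRNA 2, and that of all genes -0.04 with each. After recentring on the median gene the members' medians were -0.02 and -0.09, and over members with a mean of 200 or more they were -0.11 and -0.15. Summed over the members, the reconstructed means were 0.917 and 0.893 of the scramble sum, against 0.981 and 0.962 for all genes. Calls are named below as lost or gained under 2 alternatives, recentring of the fold changes on the median gene and adjustment over all genes with a p-value, without the authors' filter on low genes. The plot of calls by substrate shows how these counts divide.

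**Figure D1:**
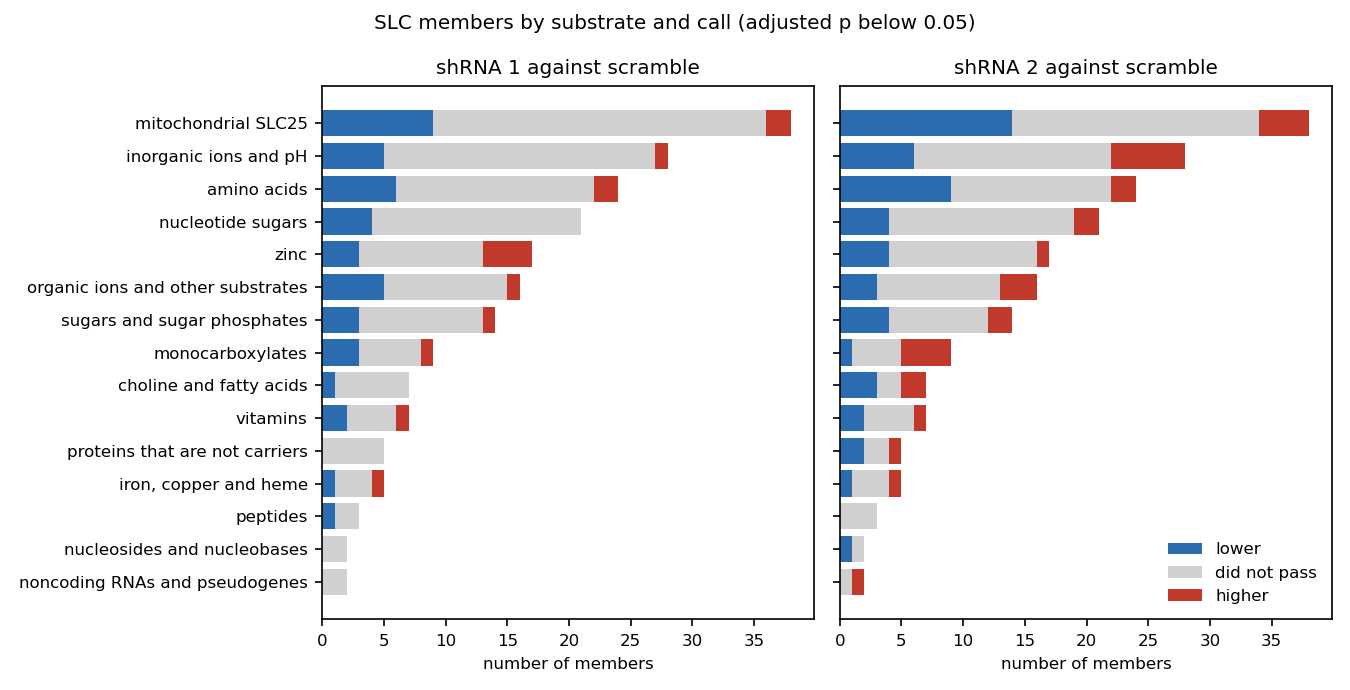
Number of SLC members (horizontal axis) in each substrate group that were lower (blue), higher (red) or did not pass (grey) at a DESeq2 adjusted p below 0.05, with shRNA 1 (left) and shRNA 2 (right) against scramble. In the 24 amino acid carriers 6 (25%) were lower with shRNA 1 and 9 (37.5%) with shRNA 2. In the 38 SLC25 members 9 (23.7%) and 14 (36.8%) were lower, beside 16.4% and 23.1% of all genes with a mean of 50 or more.

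Amino acid carriers numbered 24. With shRNA 1, 2 rose and 6 fell, and with shRNA 2, 2 rose and 9 fell, so that 13 did not pass with shRNA 2. Rises were thus 8.33% with each hairpin, beside 10.6% and 13.3% of all genes with a mean of 50 or more. Falls were 25% and 37.5%, beside 16.4% and 23.1%. The median log2 fold change of the amino acid carriers was -0.06 and -0.17. Their summed reconstructed mean was 0.919 of scramble with shRNA 1 and 0.663 with shRNA 2. The carriers with the highest means, SLC1A4 and SLC1A5, were among those that fell with shRNA 2. SLC38A10, SLC7A6 and SLC3A2, with means of 4249, 3597 and 3325, did not pass with shRNA 2. The plot of amino acid carriers shows both fold changes for each gene.

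**Figure D2:**
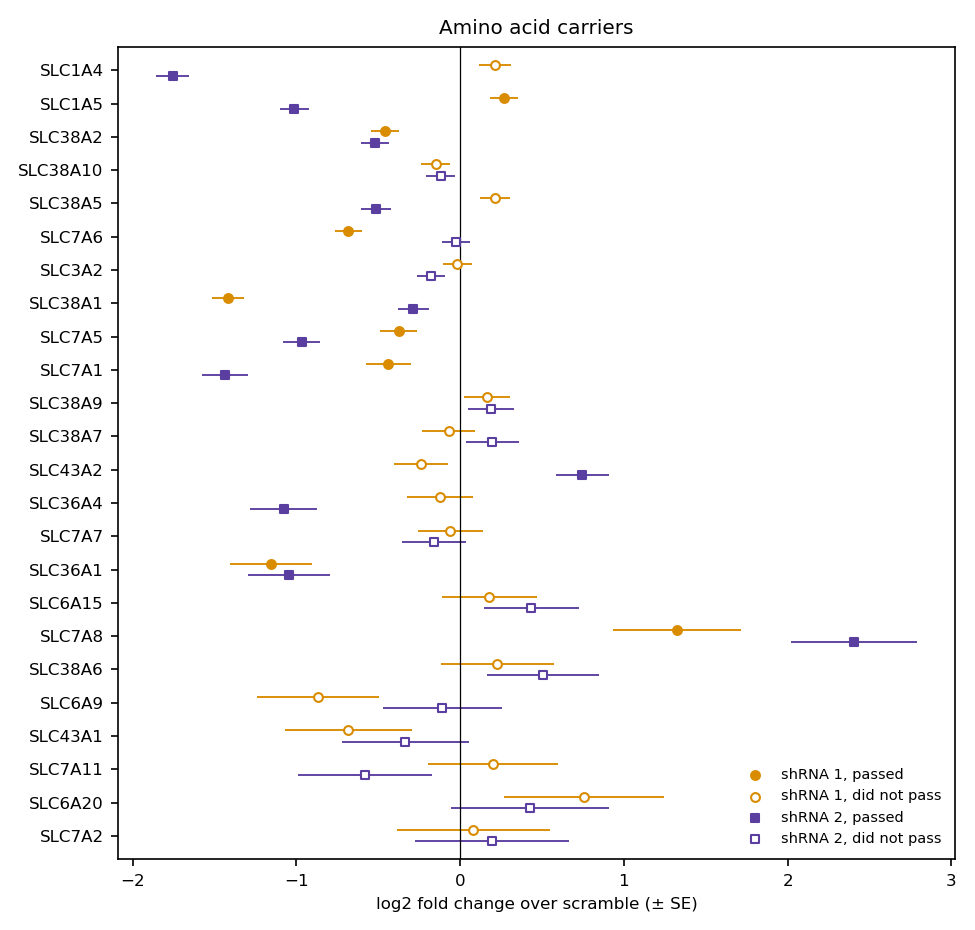
Log2 fold change over scramble (horizontal axis, bars are the SE) of the 24 amino acid carriers, ordered by mean with the highest at the top, for shRNA 1 (circles) and shRNA 2 (squares), filled where the adjusted p was below 0.05. SLC1A4 lies at -1.76 with shRNA 2 and 0.21 with shRNA 1, SLC38A1 lies lower with shRNA 1, and SLC7A8 is at the far right with both.

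The neutral carriers of family SLC1 parted by hairpin. SLC1A4 (chr2:64988477-65023865 in GRCh38), which carries alanine, serine and cysteine, had reconstructed means of 11060.3, 12829 and 3276 normalised counts in the scramble, shRNA 1 and shRNA 2 arms. The SLC1A4 log2 fold changes in the authors' deposited tables were 0.21 ± 0.10 with shRNA 1 and -1.76 ± 0.10 with shRNA 2 (SE), at DESeq2 adjusted p-values of 0.0972 and 4.56e-67. It therefore fell to 0.296 of its scramble level with shRNA 2, and the value with shRNA 1 passed only when fold changes were recentred on the median gene. SLC1A5 (chr19:46774883-46788594), the main importer of glutamine, had reconstructed means of 5467, 6588 and 2711. For SLC1A5 the authors' deposited tables give 0.27 ± 0.09 with shRNA 1 and -1.01 ± 0.09 with shRNA 2 (SE), with DESeq2 adjusted p-values of 0.0125 and 7.06e-28. SLC1A5 thus rose with shRNA 1 and fell with shRNA 2.

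Family SLC38, the sodium-coupled neutral amino acid carriers, had 7 members, of which 0 rose, 2 fell with shRNA 1 and 3 fell with shRNA 2. Those falls are 28.6% and 42.9% of the family, beside 16.4% and 23.1% of all genes with a mean of 50 or more. SLC38A1 (chr12:46183063-46270017), a glutamine carrier of the plasma membrane, had reconstructed means of 4473, 1677 and 3671 in the scramble, shRNA 1 and shRNA 2 arms. The SLC38A1 log2 fold changes were -1.42 ± 0.10 with shRNA 1 and -0.29 ± 0.09 with shRNA 2 (SE) in the authors' deposited tables (DESeq2 adjusted p 7.81e-46 and 0.0113), the larger fall being with shRNA 1. SLC38A2, which is known to be induced by amino acid shortage, had 5469.6, 3979 and 3822 and log2 fold changes of -0.46 ± 0.09 with shRNA 1 and -0.52 ± 0.09 with shRNA 2 (SE) in the authors' deposited tables, and fell with both. SLC38A5, a carrier of glutamine and histidine, had 4152, 4821 and 2909 and log2 fold changes of 0.22 ± 0.09 with shRNA 1 and -0.51 ± 0.09 with shRNA 2 (SE) in the authors' deposited tables, and fell with shRNA 2. Its shRNA 1 value passed, as a rise, only after recentring. The lysosomal arginine sensor SLC38A9 had log2 fold changes of 0.17 ± 0.14 with shRNA 1 and 0.19 ± 0.14 with shRNA 2 (SE) in the authors' deposited tables but passed with neither hairpin, as did SLC38A10, SLC38A7 and SLC38A6.

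The heterodimeric carriers join a light chain of family SLC7 to the heavy chain SLC3A2. SLC3A2 had reconstructed means of 3472, 3433 and 3071 and log2 fold changes of -0.02 ± 0.09 with shRNA 1 and -0.18 ± 0.09 with shRNA 2 (SE) in the authors' deposited tables, neither of which passed (DESeq2 adjusted p 0.929 and 0.119). Its light chain for leucine and other large neutral amino acids, SLC7A5 (chr16:87830023-87869488), had 2961, 2282 and 1515. SLC7A5 fell with both hairpins, by -0.38 ± 0.11 and -0.97 ± 0.11 (SE) as signed log2 fold changes of the authors' deposited tables (DESeq2 adjusted p 0.00508 and 3.35e-16). SLC7A6, another light chain, for cationic and neutral amino acids, had 4142, 2582 and 4068 and fell with shRNA 1, with log2 fold changes of -0.68 ± 0.08 with shRNA 1 and -0.03 ± 0.08 with shRNA 2 (SE) in the authors' deposited tables. Its exons are covered over 3371 bases by SLC7A6OS on the opposite strand. SLC7A8, a light chain that resembles SLC7A5 in substrates, was rare in the control, with reconstructed means of 42, 105 and 222. SLC7A8 rose with both hairpins, at log2 fold changes of 1.32 ± 0.39 with shRNA 1 and 2.41 ± 0.38 with shRNA 2 (SE) in the authors' deposited tables (DESeq2 adjusted p 0.00456 and 5.3e-09). Per kilobase of exon SLC7A8 still averaged 20.6 normalised counts over all libraries, where SLC7A5 averaged 475. SLC7A7 and SLC7A11, the latter the cystine and glutamate exchanger, had log2 fold changes between -0.58 and 0.20 in the authors' deposited tables and did not pass.

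SLC7A1, the importer of arginine and lysine that needs no heavy chain, had reconstructed means of 1507, 1112 and 557. It fell with both hairpins, with log2 fold changes of -0.44 ± 0.14 with shRNA 1 and -1.44 ± 0.14 with shRNA 2 (SE) in the authors' deposited tables and DESeq2 adjusted p-values of 0.00919 and 2.07e-22. In family SLC36, SLC36A1 moves small amino acids together with protons. SLC36A1 had 474, 213 and 230.1 and fell with both, at -1.16 ± 0.25 with shRNA 1 and -1.04 ± 0.25 with shRNA 2 (SE) on the log2 scale in the authors' deposited tables (DESeq2 adjusted p 5.44e-05 and 0.00023). SLC36A4, of the same family, had 443, 408 and 210.3 and log2 fold changes of -0.12 ± 0.20 with shRNA 1 and -1.08 ± 0.20 with shRNA 2 (SE) in the authors' deposited tables, and fell with shRNA 2. SLC43A2, a carrier of large neutral amino acids, had 486, 412 and 816 and rose with shRNA 2, with log2 fold changes of -0.24 ± 0.17 with shRNA 1 and 0.75 ± 0.16 with shRNA 2 (SE) in the authors' deposited tables. The remaining carriers of this group, SLC6A9, SLC6A15, SLC6A20, SLC7A2 and SLC43A1, passed with neither hairpin, at deposited means of 52.4 to 242 normalised counts in the authors' deposited tables.

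Genes that use or sense amino acids were read beside their carriers. Of 24 amino acid enzymes with a mean of 50 or more, 3 rose and 3 fell with shRNA 1, while with shRNA 2 2 rose and 8 fell. Among all genes with such a mean, 10.6% were higher and 16.4% lower with shRNA 1, and 13.3% and 23.1% with shRNA 2. PSAT1, an enzyme of serine synthesis, had reconstructed means of 629, 550.4 and 92.3 and log2 fold changes of -0.19 ± 0.18 with shRNA 1 and -2.77 ± 0.21 with shRNA 2 (SE) in the authors' deposited tables. SHMT1, which interconverts serine and glycine, had log2 fold changes of -0.15 ± 0.16 with shRNA 1 and -1.49 ± 0.17 with shRNA 2 (SE) in the authors' deposited tables, so that both fell with shRNA 2 and did not pass with shRNA 1, as was the case for SLC1A4. GOT1, the cytosolic aspartate aminotransferase, fell with both, at -0.96 ± 0.12 with shRNA 1 and -1.02 ± 0.12 with shRNA 2 (SE) in the authors' deposited tables. Of 32 genes of amino acid sensing by mTORC1, 2 rose and 10 fell with shRNA 1, while with shRNA 2 5 rose and 5 fell. FNIP2 and RRAGD, which act at the lysosome in that pathway, fell with both hairpins, FNIP2 at -1.48 ± 0.14 with shRNA 1 and -1.27 ± 0.14 with shRNA 2 (SE) in the authors' deposited tables. RRAGD had -0.71 ± 0.12 with shRNA 1 and -1.25 ± 0.12 with shRNA 2 (SE) in the authors' deposited tables, and SESN3, which restrains mTORC1, had 0.15 ± 0.13 with shRNA 1 and -0.96 ± 0.14 with shRNA 2 and fell with shRNA 2. ATF4, the factor that induces many amino acid carriers, had reconstructed means of 4914, 5927 and 4805 and rose with shRNA 1, at 0.27 ± 0.09 (SE, DESeq2 adjusted p = 0.0136) in the authors' deposited tables, where shRNA 2 gave -0.03 ± 0.09.

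Mitochondrial carriers of family SLC25 numbered 38, the most of any family. With shRNA 1, 2 rose and 9 fell, and with shRNA 2, 4 rose and 14 fell. Rises were thus 5.26% and 10.5%, beside 10.6% and 13.3% of all genes with a mean of 50 or more. Falls were 23.7% and 36.8%, beside 16.4% and 23.1%. The SLC25 medians were -0.14 and -0.17, and the summed reconstructed means 0.882 and 0.933 of scramble. The plot of SLC25 and zinc carriers gives each member.

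**Figure D3:**
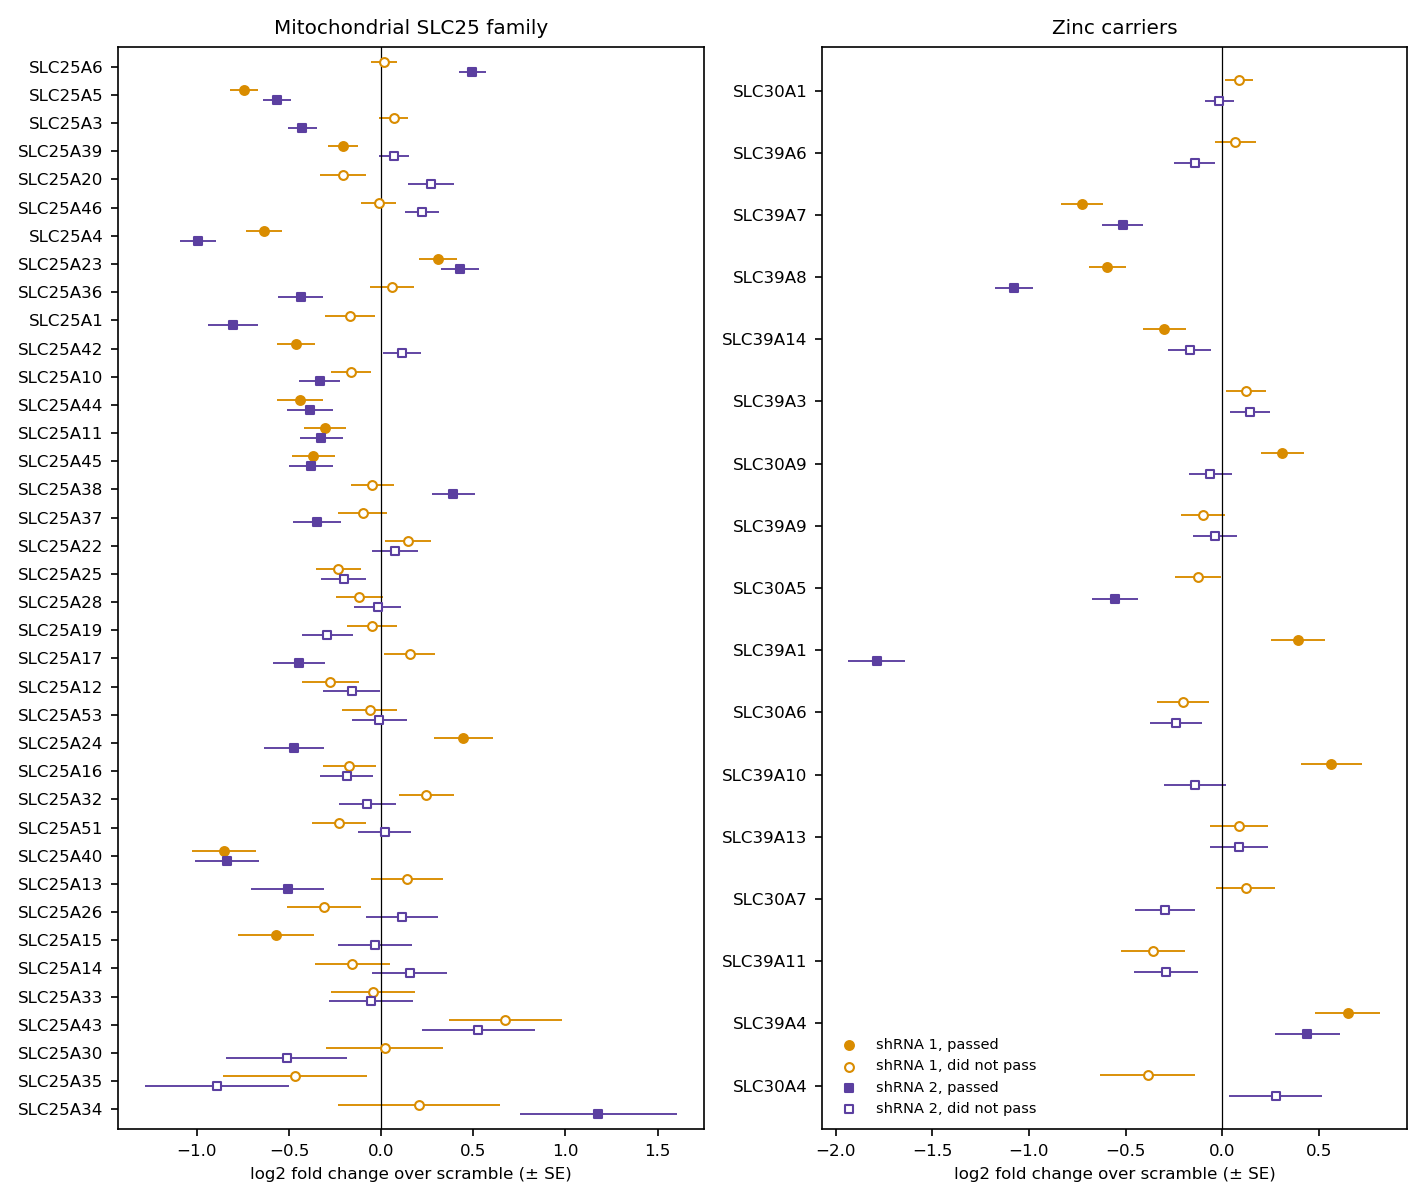
Log2 fold change over scramble (horizontal axis, bars are the SE) of the 38 SLC25 members (left) and 17 zinc carriers (right), ordered by mean with the highest at the top, with shRNA 1 (circles) and shRNA 2 (squares), filled where the adjusted p was below 0.05. SLC25A5 and SLC25A4 lie below 0 with both hairpins while SLC25A6 lies at 0.50 with shRNA 2, and SLC39A1 is the point at -1.79.

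The ADP/ATP carriers exchange the nucleotides between matrix and cytosol, and the 3 isoforms moved apart. SLC25A4 (chr4:185143241-185150382) had reconstructed means of 2957, 1900.2 and 1485 and log2 fold changes of -0.64 ± 0.10 with shRNA 1 and -0.99 ± 0.10 with shRNA 2 (SE) in the authors' deposited tables. SLC25A5 (chrX:119468400-119471319), the isoform of dividing cells, had 10232, 6103 and 6910.3 and log2 fold changes of -0.75 ± 0.08 with shRNA 1 and -0.57 ± 0.08 with shRNA 2 (SE) in the authors' deposited tables. Both fell with both hairpins, at DESeq2 adjusted p-values of 2.68e-09 and 7.54e-22 for SLC25A4 and 3.48e-20 and 3.85e-12 for SLC25A5. SLC25A6 had 9603, 9702 and 13535 and rose with shRNA 2, with log2 fold changes of 0.01 ± 0.07 with shRNA 1 and 0.50 ± 0.07 with shRNA 2 (SE) in the authors' deposited tables. The isoforms thus did not move as a set. With shRNA 2 SLC25A6 was higher where the other 2 were lower, and with shRNA 1 SLC25A6 did not pass. SLC25A5 has 9 and SLC25A6 6 annotated pseudogenes, with which reads can be shared.

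SLC25A3, the phosphate carrier that also brings in copper, had reconstructed means of 6846, 7177 and 5091 and fell with shRNA 2, with log2 fold changes of 0.07 ± 0.08 with shRNA 1 and -0.43 ± 0.08 with shRNA 2 (SE) in the authors' deposited tables. SLC25A1, the citrate exporter, had 1993, 1770.4 and 1141 and fell with shRNA 2, at -0.17 ± 0.14 with shRNA 1 and -0.80 ± 0.14 with shRNA 2 (SE) in the authors' deposited tables. Phosphate and citrate carriers thus fell with shRNA 2 and passed with shRNA 1 in neither case. The glutathione carriers SLC25A39 and SLC25A40 differed. SLC25A40 fell with both, with log2 fold changes of -0.85 ± 0.18 with shRNA 1 and -0.84 ± 0.18 with shRNA 2 (SE) in the authors' deposited tables. SLC25A39, with reconstructed means of 5608, 4853 and 5890.0, had -0.21 ± 0.08 with shRNA 1 and 0.07 ± 0.08 with shRNA 2 (SE) in the authors' deposited tables, a small fall with shRNA 1 that did not pass without the filter on low genes or after recentring. SLC25A24, a calcium-regulated carrier of ATP-magnesium and phosphate, had 645, 879 and 465 and passed in opposite directions, at 0.45 ± 0.16 with shRNA 1 and -0.47 ± 0.16 with shRNA 2 (SE) in the authors' deposited tables. Its rise with shRNA 1 did not pass without the filter on low genes. SLC25A23, of the same subfamily, rose with both, at 0.31 ± 0.10 with shRNA 1 and 0.43 ± 0.10 with shRNA 2 (SE) in the authors' deposited tables.

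Smaller falls with both hairpins were measured for SLC25A44, a carrier of branched-chain amino acids, at -0.44 ± 0.13 with shRNA 1 and -0.39 ± 0.13 with shRNA 2 (SE) in the authors' deposited tables. SLC25A45 and SLC25A11, the latter the oxoglutarate carrier of the malate-aspartate shuttle, had log2 fold changes between -0.38 and -0.31 in the authors' deposited tables, and the SLC25A11 fall with shRNA 1 was lost under both alternatives. SLC25A42, the coenzyme A carrier, and SLC25A15, the ornithine carrier, fell with shRNA 1 and did not pass with shRNA 2, with shRNA 1 values on the log2 scale of -0.46 ± 0.10 and -0.57 ± 0.21 (SE) from the authors' deposited tables, the SLC25A15 call being lost when no filter on low genes was applied. SLC25A34, a rare member with reconstructed means of 47.9, 55.2 and 108, rose with shRNA 2 at 1.18 ± 0.43 (SE) in the authors' deposited tables. SLC25A20, the carnitine and acylcarnitine carrier and among the highest per kilobase, had -0.21 ± 0.12 with shRNA 1 and 0.27 ± 0.12 with shRNA 2 (SE) in the authors' deposited tables but passed with neither, though its shRNA 2 value passed, as a rise, after recentring.

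Mitochondria also hold carriers with no SLC symbol. A list of such carriers and related proteins, mitochondrial or not, held 31 genes with a mean of 50 or more. Of these, 4 rose and 11 fell with shRNA 1. With shRNA 2, 2 rose and 15 fell. Among all genes with such a mean, 10.6% rose and 16.4% fell with shRNA 1, and 13.3% and 23.1% with shRNA 2. MPC1 and MPC2 form the mitochondrial pyruvate carrier. MPC1 had reconstructed means of 904, 415 and 222 and log2 fold changes of -1.12 ± 0.17 with shRNA 1 and -2.03 ± 0.17 with shRNA 2 (SE) in the authors' deposited tables. MPC2 had 2239, 1598 and 1085 and -0.49 ± 0.12 with shRNA 1 and -1.05 ± 0.12 with shRNA 2 (SE) in the authors' deposited tables, so that both subunits fell with both hairpins. UNC93B1, which escorts Toll-like receptors to endosomes, had 9802, 15846 and 14259 and rose with both, at 0.69 ± 0.08 with shRNA 1 and 0.54 ± 0.08 with shRNA 2 (SE) in the authors' deposited tables.

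Zinc carriers numbered 17, with 6 of family SLC30, which move zinc out of the cytosol, and 11 of family SLC39, which move it in. With shRNA 1, 4 rose and 3 fell, and with shRNA 2, 1 rose and 4 fell. Rises were thus 23.5% and 5.88%, beside 10.6% and 13.3% of all genes with a mean of 50 or more. Falls were 17.6% and 23.5%, beside 16.4% and 23.1%. In SLC30, 1 rose with shRNA 1 and 1 fell with shRNA 2. SLC39 had 3 higher and 3 lower with shRNA 1, and 1 higher and 3 lower with shRNA 2. Its summed reconstructed means were 0.912 and 0.794 of scramble, and those of SLC30 1.05 and 0.935.

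SLC39A1 (chr1:153959099-153968184), a zinc importer of the plasma membrane, had reconstructed means of 1061, 1394 and 307 in the scramble, shRNA 1 and shRNA 2 arms. Its log2 fold changes in the authors' deposited tables were 0.39 ± 0.14 with shRNA 1 and -1.79 ± 0.15 with shRNA 2 (SE), at DESeq2 adjusted p-values of 0.0224 and 6.38e-32. With shRNA 2 it fell to 0.29 of scramble, while the rise with shRNA 1 did not pass without the filter on low genes. SLC39A8, an importer of zinc and manganese, had 2637, 1748 and 1250.4 and fell with both hairpins, at -0.59 ± 0.10 with shRNA 1 and -1.08 ± 0.10 with shRNA 2 (SE) in the authors' deposited tables. SLC39A7, which releases zinc from the endoplasmic reticulum, had 2543, 1536 and 1779.7 and fell with both, at -0.73 ± 0.11 with shRNA 1 and -0.51 ± 0.11 with shRNA 2 (SE) in the authors' deposited tables. SLC39A4, the importer of dietary zinc in the gut, had 338, 531 and 459 and rose with both, at 0.65 ± 0.17 with shRNA 1 and 0.44 ± 0.17 with shRNA 2 (SE) in the authors' deposited tables, though the shRNA 2 call was lost when no filter on low genes was applied. SLC39A10 had 589, 872 and 534 and rose with shRNA 1, at 0.57 ± 0.16 with shRNA 1 and -0.14 ± 0.16 with shRNA 2 (SE) in the authors' deposited tables. Importers of the plasma membrane thus moved in both directions. SLC39A14, an importer of zinc and iron, was at -0.30 ± 0.11 with shRNA 1 and -0.17 ± 0.11 with shRNA 2 (SE) in the authors' deposited tables, and its fall with shRNA 1 was lost under both alternatives.

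SLC30A1, the exporter of the plasma membrane that zinc itself induces, had reconstructed means of 7166, 7608 and 7099, and its log2 fold changes of 0.09 ± 0.07 with shRNA 1 and -0.01 ± 0.07 with shRNA 2 (SE) in the authors' deposited tables did not pass. SLC30A5, which loads zinc into the secretory pathway, had 1352, 1239.8 and 921 and fell with shRNA 2, at -0.13 ± 0.12 with shRNA 1 and -0.55 ± 0.12 with shRNA 2 (SE) in the authors' deposited tables. SLC30A9 had 0.31 ± 0.11 with shRNA 1 and -0.06 ± 0.11 with shRNA 2 (SE) in the authors' deposited tables, a rise with shRNA 1 that was lost when no filter on low genes was applied. The other members, SLC30A4, SLC30A6, SLC30A7, SLC39A3, SLC39A6, SLC39A9, SLC39A11 and SLC39A13, had log2 fold changes between -0.39 and 0.28 in the authors' deposited tables but passed with neither hairpin. Of 12 genes of zinc binding and response, 3 had a mean of 50 or more, and the metallothionein MT2A had a mean of 14.3 and MT1X of 26.6 in the authors' deposited tables. MTF1, the factor that senses zinc, fell with shRNA 1, at -0.51 ± 0.18 with shRNA 1 and 0.13 ± 0.18 with shRNA 2 (SE) in the authors' deposited tables. TMC6 and TMC8, which bind SLC30A1, rose with both, TMC6 at 0.52 ± 0.09 with shRNA 1 and 0.63 ± 0.09 with shRNA 2 (SE) in the authors' deposited tables. TMC8 had 0.23 ± 0.07 with shRNA 1 and 0.31 ± 0.07 with shRNA 2 (SE) in the authors' deposited tables.

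The nucleoside carriers were SLC29A1 and SLC29A3. SLC29A1 (chr6:44219505-44234151), the equilibrative carrier of the plasma membrane, had reconstructed means of 3962, 3861 and 2486. It fell with shRNA 2, with log2 fold changes of -0.04 ± 0.09 with shRNA 1 and -0.67 ± 0.10 with shRNA 2 (SE) in the authors' deposited tables and DESeq2 adjusted p-values of 0.842 and 4.11e-11. SLC29A3, the lysosomal form, had 107, 119 and 131 and 0.15 ± 0.31 with shRNA 1 and 0.29 ± 0.30 with shRNA 2 (SE) in the authors' deposited tables, and did not pass. Of 14 enzymes of nucleoside salvage with a mean of 50 or more, 1 rose and 3 fell with shRNA 1. With shRNA 2, 1 rose and 8 fell. Among all genes with such a mean, 10.6% rose and 16.4% fell with shRNA 1, and 13.3% and 23.1% with shRNA 2. DCK, which phosphorylates deoxycytidine, had -0.41 ± 0.13 with shRNA 1 and -1.07 ± 0.14 with shRNA 2 (SE) in the authors' deposited tables. UCK2, which phosphorylates uridine, had -0.04 ± 0.11 with shRNA 1 and -0.87 ± 0.11 with shRNA 2 (SE) in the authors' deposited tables. HPRT1, which salvages hypoxanthine, had -0.07 ± 0.13 with shRNA 1 and -0.86 ± 0.13 with shRNA 2 (SE) in the authors' deposited tables, so that all 3 fell with shRNA 2, and DCK also with shRNA 1. The plot of arm means sets carriers of several groups side by side.

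**Figure D4:**
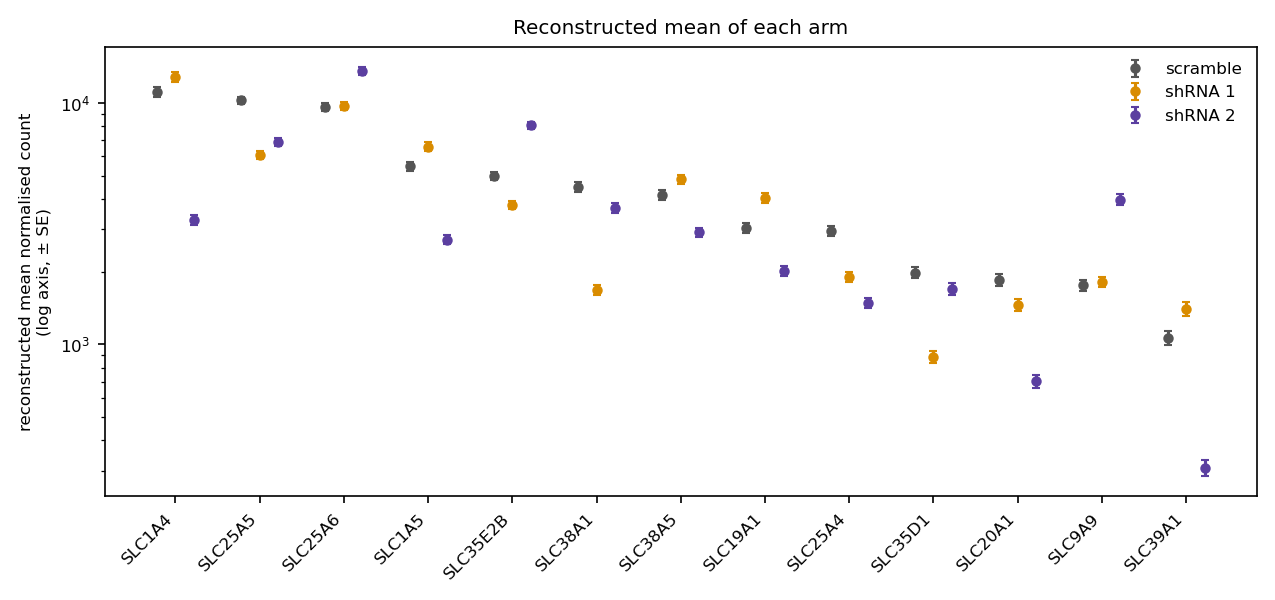
Reconstructed mean normalised count (vertical log axis, bars are the SE) in the scramble (grey), shRNA 1 (orange) and shRNA 2 (purple) arms for the 10 members with the lowest p of the difference between hairpins and the 3 ADP/ATP carriers, ordered by scramble level. SLC1A4 and SLC39A1 are far lower in the shRNA 2 arm than in the others, and SLC38A1 and SLC35D1 in the shRNA 1 arm.

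Family SLC35 carries nucleotide sugars, the donors of glycosylation, into the Golgi and endoplasmic reticulum, and some of its members have no known substrate. Of 21 members, 0 rose and 4 fell with shRNA 1, while with shRNA 2 2 rose and 4 fell. Rises were thus 0% and 9.52%, beside 10.6% and 13.3% of all genes with a mean of 50 or more. Falls were 19% with each hairpin, beside 16.4% and 23.1%, so the family's falls lay near those of all genes. SLC35D1, which carries UDP-glucuronic acid, had reconstructed means of 1980.2, 888 and 1692 and fell with shRNA 1, with log2 fold changes of -1.16 ± 0.11 with shRNA 1 and -0.23 ± 0.11 with shRNA 2 (SE) in the authors' deposited tables (DESeq2 adjusted p 1.34e-22 and 0.111). SLC35A1, the carrier of CMP-sialic acid, had 775, 367 and 612 and fell with shRNA 1, at -1.08 ± 0.17 with shRNA 1 and -0.34 ± 0.16 with shRNA 2 (SE) in the authors' deposited tables. These falls left 0.449 and 0.473 of the scramble level. SLC35E2B had 4989, 3788 and 8058 and passed in opposite directions, at -0.40 ± 0.08 with shRNA 1 and 0.69 ± 0.08 with shRNA 2 (SE) in the authors' deposited tables. SLC35E2A is its near-identical copy, with -0.01 ± 0.13 with shRNA 1 and 0.74 ± 0.13 with shRNA 2 (SE) in the authors' deposited tables, and how reads were divided between the copies is uncertain. SLC35A4 was at 0.16 ± 0.09 with shRNA 1 and -0.22 ± 0.09 with shRNA 2 (SE) in the authors' deposited tables, a fall with shRNA 2 lost under both alternatives. SLC35B1, which brings ATP into the endoplasmic reticulum, had 0.08 ± 0.14 with shRNA 1 and -0.43 ± 0.14 with shRNA 2 (SE) in the authors' deposited tables and fell with shRNA 2.

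Carriers of sugars and sugar phosphates numbered 14, with 1 higher and 3 lower with shRNA 1 and 2 higher and 4 lower with shRNA 2. Rises were thus 7.14% and 14.3%, beside 10.6% and 13.3% of all genes with a mean of 50 or more. Falls were 21.4% and 28.6%, beside 16.4% and 23.1%. SLC37A4, which brings glucose 6-phosphate into the endoplasmic reticulum, had reconstructed means of 2947, 1174 and 1757 and fell with both, at -1.33 ± 0.10 with shRNA 1 and -0.75 ± 0.10 with shRNA 2 (SE) in the authors' deposited tables (DESeq2 adjusted p 2.75e-37 and 2.33e-12). SLC37A1, its relative, had 231, 229 and 97.8 and fell with shRNA 2, at -0.01 ± 0.29 with shRNA 1 and -1.24 ± 0.30 with shRNA 2 (SE) in the authors' deposited tables. SLC5A3, which imports myo-inositol, had 1255, 690.1 and 656 and fell with both, at -0.86 ± 0.13 with shRNA 1 and -0.94 ± 0.13 with shRNA 2 (SE) in the authors' deposited tables. It shares exon sequence with MRPS6 on the same strand. SLC2A11, a member of the glucose and fructose carrier family, rose with both, at 0.44 ± 0.12 with shRNA 1 and 0.46 ± 0.12 with shRNA 2 (SE) in the authors' deposited tables. The main glucose carrier SLC2A1, which is no member, rose with both, at 1.41 ± 0.15 with shRNA 1 and 0.94 ± 0.15 with shRNA 2 (SE) in the authors' deposited tables, and so stood apart from the falls of SLC37A4 and SLC5A3.

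Family SLC16, grouped whole under monocarboxylates by its number, had 9 members, with 1 higher and 3 lower with shRNA 1 and 4 higher and 1 lower with shRNA 2. Rises were thus 11.1% and 44.4%, beside 10.6% and 13.3% of all genes with a mean of 50 or more. Falls were 33.3% and 11.1%, beside 16.4% and 23.1%. The 3 lower with shRNA 1 were SLC16A1, SLC16A10 and SLC16A14, so these counts are of the family and not of monocarboxylate carriers alone. SLC16A1, which moves lactate and pyruvate in either direction, had reconstructed means of 1943, 1006 and 1527 and fell with shRNA 1, at -0.95 ± 0.15 with shRNA 1 and -0.35 ± 0.15 with shRNA 2 (SE) in the authors' deposited tables. SLC16A3, the lactate exporter of glycolytic cells, had 855, 1256 and 1317 and rose with both, at 0.56 ± 0.12 with shRNA 1 and 0.62 ± 0.12 with shRNA 2 (SE) in the authors' deposited tables (DESeq2 adjusted p 8.58e-05 and 4.37e-06). These carriers of lactate thus moved in opposite directions with shRNA 1. SLC16A10 fell with shRNA 1, at -0.49 ± 0.17 with shRNA 1 and -0.35 ± 0.17 with shRNA 2 (SE) in the authors' deposited tables. SLC16A14, which has no known substrate, had 746, 424 and 236 and fell with both, at -0.82 ± 0.20 with shRNA 1 and -1.66 ± 0.20 with shRNA 2 (SE) in the authors' deposited tables. SLC16A8 had 113, 76 and 215 and rose with shRNA 2, at -0.58 ± 0.33 with shRNA 1 and 0.92 ± 0.31 with shRNA 2 (SE) in the authors' deposited tables. Partner subunits were read from a list of 9 genes, 6 of them with a mean of 50 or more, with 4 higher and 1 lower with shRNA 1, and 2 higher and 0 lower with shRNA 2. BSG (basigin), the partner that carries SLC16A1 and SLC16A3 to the surface, had 9644, 18097 and 12713 and rose with both, at 0.91 ± 0.09 with shRNA 1 and 0.40 ± 0.09 with shRNA 2 (SE) in the authors' deposited tables.

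Carriers of inorganic ions and of acid or base numbered 28. With shRNA 1, 1 rose and 5 fell, and with shRNA 2, 6 rose and 6 fell. Rises were thus 3.57% and 21.4%, beside 10.6% and 13.3% of all genes with a mean of 50 or more. Falls were 17.9% and 21.4%, beside 16.4% and 23.1%. SLC4A7, a sodium bicarbonate carrier, had reconstructed means of 632, 226 and 319 and fell with both, at -1.48 ± 0.20 with shRNA 1 and -0.99 ± 0.20 with shRNA 2 (SE) in the authors' deposited tables (DESeq2 adjusted p 1.04e-11 and 8.8e-06). SLC4A2, which exchanges chloride for bicarbonate, fell with both at -0.31 ± 0.11 with shRNA 1 and -0.40 ± 0.11 with shRNA 2 (SE) in the authors' deposited tables. SLC20A1, a phosphate importer, had 1852, 1455 and 702 and fell with both, far more with shRNA 2, at -0.35 ± 0.12 with shRNA 1 and -1.40 ± 0.12 with shRNA 2 (SE) in the authors' deposited tables. SLC26A2, the sulfate carrier, had 538, 216 and 448 and fell with shRNA 1, at -1.32 ± 0.18 with shRNA 1 and -0.26 ± 0.17 with shRNA 2 (SE) in the authors' deposited tables. SLC9A9, a sodium and proton exchanger of endosomes, had 1757, 1812 and 3971 and rose with shRNA 2, at 0.04 ± 0.10 with shRNA 1 and 1.18 ± 0.10 with shRNA 2 (SE) in the authors' deposited tables. The falls thus included SLC4A7, SLC4A2 and SLC20A1 with both hairpins and SLC26A2 with shRNA 1, and the rises SLC9A9 with shRNA 2. Other carriers of these families or substrates went otherwise. SLC20A2 passed with neither, at -0.31 ± 0.18 with shRNA 1 and 0.01 ± 0.18 with shRNA 2 (SE) in the authors' deposited tables. SLC26A6 rose with shRNA 2, at 0.42 ± 0.14 (SE) in the authors' deposited tables. SLC4A5 and the sulfate carrier SLC13A4, both given below, also rose with shRNA 2.

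Of the 3 magnesium carriers, SLC41A3 rose with both, at 0.46 ± 0.12 with shRNA 1 and 0.37 ± 0.12 with shRNA 2 (SE) in the authors' deposited tables. SLC41A1 and SLC41A2 fell with shRNA 2, at -0.74 ± 0.12 and -0.74 ± 0.19 (SE) in the authors' deposited tables. SLC12A7, a potassium chloride carrier, had 0.28 ± 0.11 with shRNA 1 and 0.09 ± 0.11 with shRNA 2 (SE) in the authors' deposited tables, and its shRNA 1 value passed, as a rise, only after recentring. SLC4A8 and SLC4A5 share exon sequence with GALNT6 and MTHFD2 on the opposite strand. SLC4A8 had 0.59 ± 0.33 with shRNA 1 and -1.26 ± 0.34 with shRNA 2 (SE) in the authors' deposited tables and fell with shRNA 2. SLC4A5 had 0.60 ± 0.40 with shRNA 1 and 1.03 ± 0.39 with shRNA 2 (SE) in the authors' deposited tables, a rise with shRNA 2 that was lost when no filter on low genes was applied.

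Among 7 vitamin carriers, 1 (14.3%) rose and 2 (28.6%) fell with each hairpin. Of all genes with a mean of 50 or more, 10.6% rose and 16.4% fell with shRNA 1, and 13.3% and 23.1% with shRNA 2. SLC19A1 (chr21:45493572-45544411), the reduced folate carrier that also takes up methotrexate, had reconstructed means of 3025, 4039 and 2012. It passed in opposite directions, with log2 fold changes of 0.42 ± 0.09 with shRNA 1 and -0.59 ± 0.09 with shRNA 2 (SE) in the authors' deposited tables and DESeq2 adjusted p-values of 6.33e-05 and 4.37e-09. SLC23A1, an ascorbate carrier, had 158, 196 and 547 and rose with shRNA 2, at 0.31 ± 0.23 with shRNA 1 and 1.79 ± 0.22 with shRNA 2 (SE) in the authors' deposited tables. SLC23A2, another ascorbate carrier, had 1525, 1161 and 1525 and fell with shRNA 1, at -0.39 ± 0.12 with shRNA 1 and 0.00 ± 0.11 with shRNA 2 (SE) in the authors' deposited tables. SLC5A6, which imports biotin and pantothenate, fell with shRNA 1, at -0.75 ± 0.11 with shRNA 1 and -0.25 ± 0.11 with shRNA 2 (SE) in the authors' deposited tables. SLC52A2, a riboflavin carrier, had 0.20 ± 0.10 with shRNA 1 and -0.02 ± 0.10 with shRNA 2 (SE) in the authors' deposited tables but passed with neither. SLC46A1, another folate carrier, had 0.46 ± 0.18 with shRNA 1 and 0.01 ± 0.19 with shRNA 2 (SE) in the authors' deposited tables but passed with neither, though its shRNA 1 value passed, as a rise, after recentring. SLC19A2, a thiamine carrier, had -0.33 ± 0.22 with shRNA 1 and -0.54 ± 0.22 with shRNA 2 (SE) in the authors' deposited tables, a fall with shRNA 2 that was lost under both alternatives.

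Choline and fatty acid carriers numbered 7, of which 0 rose and 1 fell with shRNA 1, while with shRNA 2 2 rose and 3 fell. Falls were thus 14.3% and 42.9%, beside 16.4% and 23.1% of all genes with a mean of 50 or more. Rises with shRNA 2 were 28.6%, beside 13.3%. SLC44A1, a choline carrier, had 4659.7, 3573 and 2709.9 and fell with both, at -0.38 ± 0.09 with shRNA 1 and -0.78 ± 0.09 with shRNA 2 (SE) in the authors' deposited tables. SLC44A2, of the same family, rose with shRNA 2, at -0.42 ± 0.21 with shRNA 1 and 0.54 ± 0.21 with shRNA 2 (SE) in the authors' deposited tables. That rise was lost when no filter on low genes was applied. The fatty acid carriers SLC27A2 and SLC27A4 fell with shRNA 2, at -0.98 ± 0.22 and -0.33 ± 0.12 (SE) by the authors' deposited tables, and SLC27A1 rose at 1.29 ± 0.36. The metal and heme group had 5 members, with 1 (20%) higher and 1 (20%) lower with each hairpin. SLC31A1, the copper importer, had 733, 319.6 and 562 and fell with shRNA 1, at -1.20 ± 0.16 with shRNA 1 and -0.38 ± 0.15 with shRNA 2 (SE) in the authors' deposited tables, and its smaller fall with shRNA 2 was lost under both alternatives. SLC11A2, the importer of ferrous iron, had 783, 1121 and 747 and rose with shRNA 1, at 0.52 ± 0.13 with shRNA 1 and -0.07 ± 0.13 with shRNA 2 (SE) in the authors' deposited tables. SLC48A1, which moves heme out of lysosomes, rose with shRNA 2 at 0.33 ± 0.11 (SE) in the authors' deposited tables. SLC40A1 (ferroportin), the iron exporter, had -0.63 ± 0.35 with shRNA 1 and -0.14 ± 0.34 with shRNA 2 (SE) in the authors' deposited tables and did not pass.

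Carriers of organic ions and other substrates numbered 16, with 1 higher and 5 lower with shRNA 1 and 3 higher and 3 lower with shRNA 2. Rises were thus 6.25% and 18.75%, beside 10.6% and 13.3% of all genes with a mean of 50 or more. Falls were 31.25% and 18.75%, beside 16.4% and 23.1%. SLC17A5 (sialin), which lets sialic acid out of lysosomes, had 594, 934 and 577 and rose with shRNA 1, at 0.65 ± 0.14 with shRNA 1 and -0.04 ± 0.14 with shRNA 2 (SE) in the authors' deposited tables. SLC17A9, which fills vesicles with ATP, fell with both, at -0.65 ± 0.24 with shRNA 1 and -0.74 ± 0.24 with shRNA 2 (SE) in the authors' deposited tables, its shRNA 1 call being lost when no filter on low genes was applied. SLC10A7 fell with both, at -0.69 ± 0.20 with shRNA 1 and -0.78 ± 0.20 with shRNA 2 (SE) in the authors' deposited tables. SLC6A6, the taurine importer, fell with shRNA 1, at -0.47 ± 0.12 with shRNA 1 and -0.25 ± 0.12 with shRNA 2 (SE) in the authors' deposited tables. SLC33A1, which brings acetyl-CoA into the endoplasmic reticulum, had -0.05 ± 0.10 with shRNA 1 and 0.00 ± 0.10 with shRNA 2 (SE) in the authors' deposited tables and did not pass. SLC13A4, a sulfate carrier, rose with shRNA 2 at 1.68 ± 0.39 (SE) in the authors' deposited tables, as did the urea carrier SLC14A1 at 0.87 ± 0.25. SLC47A1, an exporter of organic cations, fell with shRNA 2 at -1.27 ± 0.30 (SE), and SLC22A15 fell with shRNA 1 at -1.31 ± 0.36, in the authors' deposited tables.

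Peptide carriers were SLC15A2, SLC15A3 and SLC15A4. SLC15A4, which acts in endolysosomes and is needed for signalling by Toll-like receptors there, had reconstructed means of 495, 598 and 449.8 and log2 fold changes of 0.27 ± 0.16 with shRNA 1 and -0.14 ± 0.16 with shRNA 2 (SE) in the authors' deposited tables, neither of which passed. SLC15A2, a peptide importer of the plasma membrane, fell with shRNA 1, at -0.84 ± 0.27 with shRNA 1 and -0.39 ± 0.27 with shRNA 2 (SE) in the authors' deposited tables. The rule also took 5 genes whose symbols begin with SLC but whose proteins carry nothing. SLC9A3R1 among them rose with shRNA 2, at 0.14 ± 0.08 with shRNA 1 and 0.27 ± 0.08 with shRNA 2 (SE) in the authors' deposited tables. SLC7A6OS had -0.05 ± 0.12 with shRNA 1 and 0.24 ± 0.12 with shRNA 2 (SE) in the authors' deposited tables, and its shRNA 2 value passed, as a rise, only after recentring. It also took 2 noncoding RNAs. SLC16A1-AS1 had 0.08 ± 0.22 with shRNA 1 and 0.53 ± 0.21 with shRNA 2 (SE) in the authors' deposited tables, a rise with shRNA 2 lost when no filter on low genes was applied, and SLC25A5-AS1 did not pass.

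The hairpins were compared by the difference of their fold changes, shRNA 2 minus shRNA 1, tested by z with Benjamini-Hochberg adjustment over the 12977 genes. Of the 198 members 27 were higher with shRNA 2 than with shRNA 1 and 33 lower, 13.6% and 16.7%, beside 11.5% and 15.5% of all genes. The SE used is too large, since both fold changes rest on the same scramble libraries. With an SE that leaves out the scramble share, 43 members were higher and 44 lower, where 20.1% and 23.7% of all genes were. SLC39A1 had a difference of -2.18 ± 0.20 (SE, adjusted p from z = 8.1e-25) and SLC1A4 of -1.97 ± 0.14 (adjusted p from z = 3.53e-42). SLC1A5 at -1.28 ± 0.13 (SE), SLC20A1 at -1.05 ± 0.17, SLC19A1 at -1.00 ± 0.13 and SLC38A5 at -0.73 ± 0.13 also lay lower with shRNA 2, with adjusted p from z of 2.46e-22, 1.07e-08, 7.54e-13 and 3.1e-07. On the other side, SLC38A1 at 1.13 ± 0.14 (SE), SLC9A9 at 1.13 ± 0.15, SLC35E2B at 1.09 ± 0.11 and SLC35D1 at 0.93 ± 0.16 lay higher with shRNA 2, with adjusted p from z of 4.88e-15, 1.01e-12, 5.68e-21 and 8.28e-08. These 10 have the lowest p of the difference among members, and 3 of them carry neutral amino acids and were lower with shRNA 2 (SLC1A4, SLC1A5 and SLC38A5) while SLC38A1 was higher. In the amino acid group as a whole, 3 members (12.5%) were higher and 6 (25%) lower with shRNA 2 than with shRNA 1. In SLC25 these were 4 (10.5%) and 6 (15.8%), beside 11.5% and 15.5% of all genes. The libraries labelled shRNA 1 and shRNA 2 also differed in IRF3, at 1.35 ± 0.15 (SE), and the part of that in these differences was not tested.

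**Figure D5:**
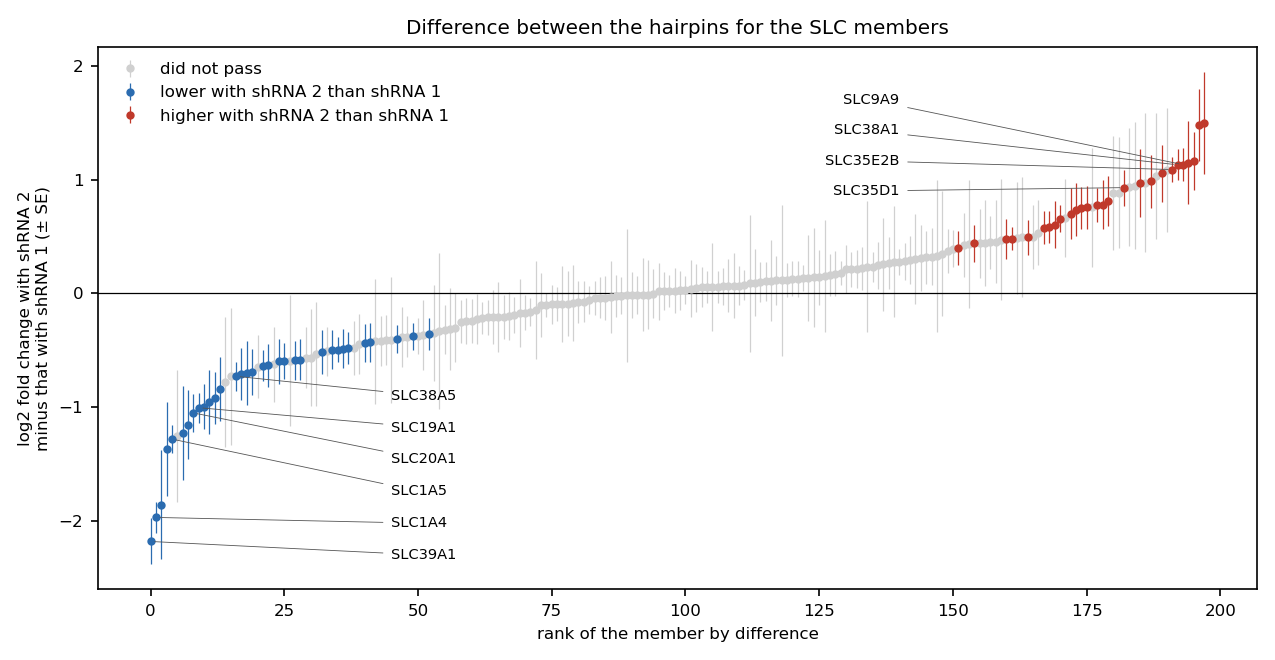
Log2 fold change with shRNA 2 minus that with shRNA 1 (vertical axis, bars are the SE) for the 198 members, ranked from the lowest to the highest, with the 33 lower in blue, the 27 higher in red and those that did not pass in grey. The 10 members with the lowest p are named, from SLC39A1 at -2.18 to SLC9A9 and SLC38A1 at 1.13.

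Exons of 57 members overlap those of another gene with a mean of 50 or more, 49 of them on the opposite strand, and whether counting used strand was not stated in the sources used here. Among the members named above these include SLC39A1 (with CREB3L4), SLC39A7 (with RXRB), SLC37A4 (with TRAPPC4), SLC25A40 (with DBF4), SLC19A1 (with COL18A1) and SLC16A3 (with CSNK1D). The overlap with SLC39A1 covers 280 bases.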

How the data were processed

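Messenger RNA of MM.1S cells, enriched by its poly(A) tail, was sequenced in 6 libraries, 2 each for the scramble hairpin, shRNA 1 and shRNA 2, grouped by the shRNA in the labels. Salmon 0.12.0, DESeq2 1.24.0 and the build GRCh38 are named in the submitters' processing notes. Their settings, the annotation and any use of strand were not stated in the sources used here. Because Salmon shares out ambiguous reads by a model, levels of close copies and overlapping genes are estimates.

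The authors deposited 2 tables of comparisons. Per the file headers, the authors' baseMean is a signal, the average normalised read count of the fitted libraries, identical in both tables for all 33095 genes. Fold changes and SEs were used on the log2 scale on which the authors deposited them. The Wald score the authors deposited equals fold change over SE to within 3.27e-07. Each p-value and adjusted p is the authors' deposited value, and a call is a DESeq2 adjusted p below 0.05. Depth per library is unknown, and no count test was run.

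Arm means and dispersions were solved from the mean, both fold changes and both SEs with Python 3.11.15, pandas 2.3.3, numpy 2.4.6 and scipy 1.17.1. As a check of the coding as shRNA over scramble, dispersions from the 2 tables were compared in 238 genes, with a median absolute log2 ratio of 0.012 as coded, 0.288 with the second table turned, 0.338 with the first and 0.0899 with both. The hairpin difference was tested by z, with an SE whose square is the sum of both squared SEs, as a two-sided test with Benjamini-Hochberg adjustment over 12977 genes, and was tested on simulated data. This SE is too large, because both fold changes rest on the same scramble libraries. Coordinates, exon lengths and overlaps came from GENCODE 29 and promoters from RefSeq, and 32 members had no promoter entry.

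Members, substrate groups and gene lists were chosen with earlier results of these data known, and the motifs and the group of proteins that are no carriers were added after the files were seen. The naming rule took 87 members. These were the 10 highest by mean and all that passed in both comparisons. The rule took, for each hairpin, the 6 higher and 6 lower with the largest change that passed with that hairpin and not the other. It also took the 10 with the lowest p of the difference, the 2 highest per group, all nucleoside and zinc carriers, 3 on either side of the mean of 50, and the 3 lowest p per list of other genes. Other names, such as SLC3A2, SLC7A6, SLC43A2, SLC25A1, SLC16A8, SLC41A1, SLC5A6, SLC19A2, SLC23A2 and SLC46A1, were chosen after their values were seen. Alternatives covered the threshold, a fold minimum, the filter on low genes, recentring, a mean of 200 and the SE of the difference.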

Additional observations from a re-analysis of the deposited data

Results flagged for a closer look

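Counts of members whose fold changes differed between the hairpins were 27 higher and 33 lower with shRNA 2 than with shRNA 1, by the z test of the difference. These are 13.6% and 16.7% of the 198 members, near the 11.5% and 15.5% of all genes with a mean of 50 or more. With an SE that leaves out the scramble share these counts were 43 and 44, where 20.1% and 23.7% of all genes were called. Among the members that differed were 5 that passed against scramble in opposite directions, and whose difference, shRNA 2 minus shRNA 1, also passed. The share of all genes that passed in opposite directions was not counted, so these 5 are no result about solute carriers as a class. SLC39A1 had a log2 difference of -2.18, with reconstructed means of 1061, 1394 and 307 normalised counts in the scramble, shRNA 1 and shRNA 2 arms. SLC1A5 had a difference of -1.28 and SLC19A1 of -1.00, both higher than scramble with shRNA 1 and lower with shRNA 2. SLC25A24 had a difference of -0.92 and moved the same way. SLC35E2B had a difference of 1.09, in the other direction, and shares near-identical sequence with SLC35E2A. The rises of SLC39A1 and SLC25A24 with shRNA 1 did not pass without the filter on low genes. IRF3 was lower than scramble in the libraries labelled shRNA 1 and not shown to be lower in those labelled shRNA 2.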

How the results depend on the processing

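At an adjusted p below 0.01 the members higher with shRNA 1 went from 14 to 9 and those higher with shRNA 2 from 30 to 17. With an absolute log2 fold change of at least 0.5, 6 were higher and 26 of 43 lower with shRNA 1, and 18 were higher with shRNA 2. With an SE of the difference that leaves out the scramble share, members higher with shRNA 2 than with shRNA 1 went from 27 to 43. The other counts stayed within 1.5 times of their value under every alternative run. The median log2 fold change of the members stayed below 0 but moved in size. With shRNA 1 it went from -0.06 to -0.11 over members with a mean of 200 or more, to -0.05 with a mean of 10 or more and to -0.02 after recentring. With shRNA 2 it went from -0.13 to -0.15, -0.06 and -0.09. Of the 87 members named by the rule, 7 calls with shRNA 1 and 5 with shRNA 2 were lost when no filter on low genes was applied, and after recentring 3 and 2 were lost and 3 and 1 gained. No paired analysis was possible because the tables hold no value of a single library, and for the same reason no library was left out in turn. Counts of members that passed in both comparisons were planned but are not given, since the comparisons share the scramble libraries. Precision was lowest in the rarer members. The median SE of the log2 fold change with shRNA 1 was 0.371 for 42 members with a mean from 50 to 200, 0.168 for 81 up to 1000 and 0.108 for 75 above, and 3, 21 and 33 of these were called. With shRNA 2 the median SEs were 0.363, 0.169 and 0.107, and 12, 29 and 43 were called. A change not called in a rare member may be absent or too small to detect at this precision.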
